A study of Mus musculus with 6 samples.

Results

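Groups of accessible sites that lie close together along the genome were examined in muscle fibre nuclei with and without knockdown of Yap. Peaks on chromosomes 1 to 19 whose gap to the next peak was at most 12500 bp were joined, groups of 6 or more peaks were kept, and peaks of 351 to 2999 bp within these groups were taken as members. This gave 803 member peaks in 126 domains, out of 36097 peaks and 26457 joined groups. The domains held 867 peaks in all, and 3 narrower and 61 broader peaks were left out. Positions only chose the members, so levels and changes between groups were not used in choosing them.

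ATAC-seq had been used to read accessibility, by letting a transposase insert into DNA that is not covered, in nuclei sorted for PCM1, a protein at the surface of muscle fibre nuclei. Both groups were male C57BL/6J mice of 8 weeks whose muscles received an AAV6 vector and were taken after 28 days. The LacZ-shRNA group (3 replicates) received a control hairpin against a bacterial gene, and the Yap-shRNA group (3 replicates) a hairpin that lowers Yap, in the muscles of the opposite leg. Each replicate pooled 4 gastrocnemius and 4 tibialis anterior muscles, so the nuclei came from several muscles and no single animal can be followed. That replicates are separate pools is as far as the labels go, and p-values measure the spread between these pools. Peak counts per library ranged from 2588520 to 6871176, and the 2 shallowest libraries were both LacZ-shRNA. The hairpin acts on the Yap1 transcript and not on its chromatin, so accessibility does not check the knockdown. The Yap1 start-site window held 14.3 ± 2.28 CPM (SD, n = 3; CPM is a count scaled by the effective size of its library) in LacZ-shRNA and 14.4 ± 2.22 in Yap-shRNA.

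Enhancers are stretches of open DNA where transcription factors bind and raise the activity of genes that may lie some distance away. Large enhancer domains, often called super-enhancers, are made of many such elements within a short distance and are known for lying near genes that define a cell type. In muscle, MEF2 and MyoD family factors bind such elements, the MyoD family at E-boxes. Yap is a co-activator without a DNA-binding domain of its own, and it is brought to DNA mainly by TEAD factors. Super-enhancers are usually called from a histone mark or a cofactor and ranked by its signal, and neither was measured here, so the joined groups are called clustered domains.

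Against that label, the members were a mixture of kinds. Of the 803 members, 308 (38.4%) lay within 1 kb of an annotated transcript start, 300 (37.4%) in the rest of a gene and 195 (24.3%) between genes. Among the 33588 other autosomal peaks of the same width range, 34.8% were promoter, 32.9% genic and 32.3% intergenic. The strongest member by LacZ-shRNA level was a promoter in 72 domains, a genic peak in 37 and an intergenic peak in 17. At least 50% of the members were promoters in 47 domains, all of them in 6, and no member was a promoter in 19. Protein-coding genes started inside 109 domains, 310 genes in all, and 21 domains held 5 or more such starts. Domains spanned 21.6 to 83.4 kb with a median of 45.2 kb, and chromosome 11 held the most, 15.

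By summed level the domains overlapped only in part with the strongest joined groups. Ranked by summed LacZ-shRNA CPM over 25988 joined groups, 46 domains were among the 126 strongest groups, 76 among the top 1% and 120 among the top 10%. The lowest domain ranked 11262. Groups with a single peak in the width range had a median of 11.9 CPM, against 215 CPM for the domains, and 45 of 20290 such single peaks lay above the domain median. A sum over more peaks is higher by construction, so this describes the domains and tests nothing.

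Stretches of the strongest members outside promoters were read from GRCm38 to show what these elements look like. Each stretch is the 200 bases of the peak with the most matches to 7 motifs, given on the plus strand, with each match in capitals. The motifs, counted on both strands, were the E-box CAGCTG, TEAD ACATTCC, AP-1 TGANTCA, the glucocorticoid receptor site ACANNNTGT, the nuclear receptor site AGGTCA, and those of MEF2 and CTCF by name. A match is a string and not a measured binding site. The first 3 are from domains with the most members or the highest level, out of 8 stretches chosen by that rule, and those in the histone and Sspn domains held no match. The stretch near Fosb holds 3 nuclear receptor strings, on both strands.
Sec14l1, chr11:117123592-117123791: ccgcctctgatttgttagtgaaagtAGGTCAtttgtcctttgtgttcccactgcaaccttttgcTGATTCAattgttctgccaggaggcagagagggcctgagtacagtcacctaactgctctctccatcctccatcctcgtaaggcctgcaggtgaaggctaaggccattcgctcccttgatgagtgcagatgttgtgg
Nudt3, chr17:27603513-27603712: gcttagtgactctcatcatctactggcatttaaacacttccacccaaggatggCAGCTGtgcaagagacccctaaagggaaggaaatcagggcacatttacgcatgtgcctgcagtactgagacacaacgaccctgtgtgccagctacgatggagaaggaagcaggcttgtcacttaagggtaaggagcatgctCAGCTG
Fosb, chr7:19319611-19319810: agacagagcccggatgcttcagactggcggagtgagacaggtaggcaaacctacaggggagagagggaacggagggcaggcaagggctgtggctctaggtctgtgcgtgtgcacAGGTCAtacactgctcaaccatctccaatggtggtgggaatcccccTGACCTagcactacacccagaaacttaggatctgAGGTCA
The next 4 were chosen after their values were seen, since the comparison between groups turns on them. They are the member called higher near Myl1, the called member near Kmt2e, 1 of the 2 members upstream of Idh2 that hold a TEAD string, and the strongest non-promoter member of the Tead1 domain, where a TEAD string directly follows an E-box.
Myl1, chr1:66922907-66923106: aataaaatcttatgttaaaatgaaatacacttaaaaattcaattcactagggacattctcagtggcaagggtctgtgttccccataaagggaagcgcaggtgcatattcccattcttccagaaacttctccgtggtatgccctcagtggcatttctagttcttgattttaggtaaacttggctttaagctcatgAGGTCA
Kmt2e, chr5:23402048-23402247: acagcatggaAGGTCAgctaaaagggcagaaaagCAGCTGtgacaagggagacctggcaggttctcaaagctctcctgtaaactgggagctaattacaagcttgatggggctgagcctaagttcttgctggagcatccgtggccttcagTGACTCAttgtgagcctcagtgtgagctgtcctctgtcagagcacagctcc
Idh2, chr7:80121166-80121365: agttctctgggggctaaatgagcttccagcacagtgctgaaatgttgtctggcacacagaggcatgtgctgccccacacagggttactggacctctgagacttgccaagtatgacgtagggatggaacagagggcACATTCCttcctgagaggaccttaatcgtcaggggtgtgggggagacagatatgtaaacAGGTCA
Tead1, chr7:112763196-112763395: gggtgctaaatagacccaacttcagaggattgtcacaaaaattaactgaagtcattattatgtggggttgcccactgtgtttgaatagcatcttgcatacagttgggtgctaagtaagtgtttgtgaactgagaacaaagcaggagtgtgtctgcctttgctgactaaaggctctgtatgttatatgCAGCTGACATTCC

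Members outside promoters were more accessible than other peaks outside promoters in every library, whereas promoter members were close to other promoters. Levels are given as log2 CPM per kb of peak, and the difference is that of the medians, members minus others. Over all classes the difference was 0.31, 0.42 and 0.40 in the 3 LacZ-shRNA libraries and 0.39, 0.31 and 0.32 in the 3 Yap-shRNA libraries. Outside promoters it was 0.58, 0.79 and 0.93 in LacZ-shRNA and 0.80, 0.71 and 0.65 in Yap-shRNA. At promoters it was 0.05 to 0.10 over the 6 libraries. The ranges of the groups overlapped in each case. The median level of non-promoter members was 24.8 CPM per kb, against 15.1 for other non-promoter peaks, and 26.7 against 25.3 at promoters. The lower quartile of non-promoter peaks differed more, 21.0 against 5.10, while the upper quartiles were 28.9 and 22.0. Weakly open sites were thus rarer among members outside promoters. Peaks were called from these same libraries, so this describes the members and tests nothing. Members were also wider, with a median of 1175 against 894 bp, and outside promoters had less repeat-masked sequence, 14.1% against 39.3%, while at promoters the masked share was higher in members, 9.56% against 7.24%.

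**Figure D1:**
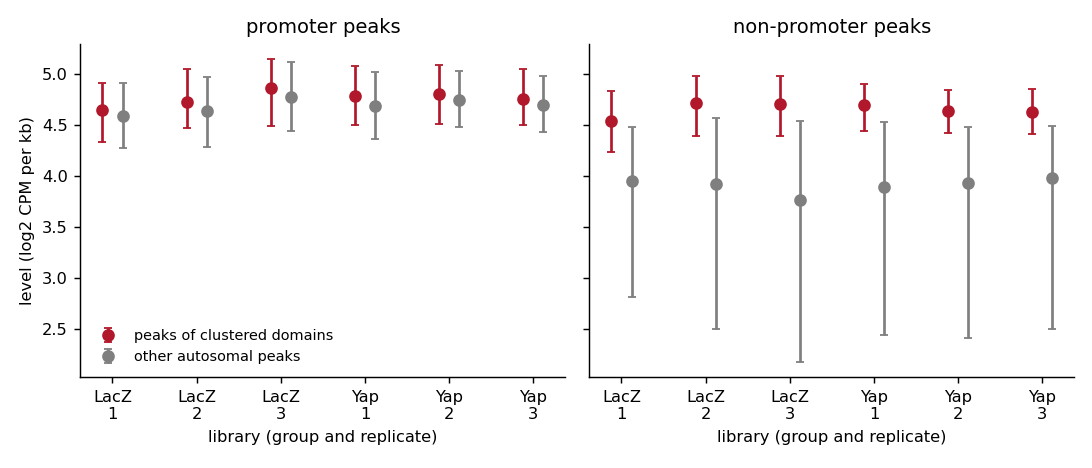
Level of member peaks (red) and other autosomal peaks (grey) in each library, for promoter peaks (left) and non-promoter peaks (right), as log2 CPM per kb; points are medians and bars run from the lower to the upper quartile. Outside promoters the median of members is higher in all 6 libraries by 0.58 to 0.93, and at promoters by 0.05 to 0.10.

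Strings of muscle and Yap-related factors were found in a larger share of members than of other peaks. Since members were wider, the central 600 bases of peaks at least that wide were compared, 745 members and 26781 others. The E-box, bound by MyoD family factors, was found in 41.5% of members and 29.8% of others. MEF2, a family that drives contractile and metabolic genes of muscle, was found in 3.89% and 1.59%, which is 29 members. TEAD was found in 7.25% and 4.39%, which is 54 members. AP-1, bound by Fos and Jun proteins, was found in 14.8% and 9.51%, and the nuclear receptor string in 34.4% and 24.0%. The glucocorticoid receptor string (17.05% and 16.6%) and CTCF (2.82% and 2.25%) were at closer shares.

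The classes differed in base composition. At promoters the central GC content was lower in members, 59.2% against 64.3%, and the MEF2 share was 3.95% against 0.889%. Outside promoters GC content was close, 52.5% and 52.0%. The E-box share there was 44.2% against 29.3%, the AP-1 share 17.5% against 10.5% and the TEAD share 7.03% against 4.73%. The non-promoter sets were not matched in other ways. Over all widths of the rule, the median repeat-masked share was 14.1% in members and 39.3% in others. The lower quartile of level was 21.0 and 5.10 CPM per kb. What sets the difference in strings was not tested.

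**Figure D2:**
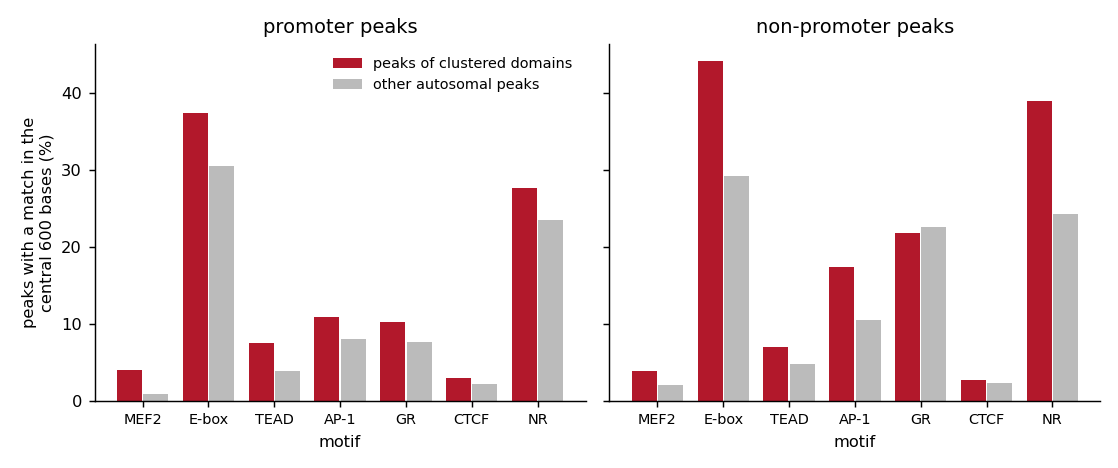
Share of peaks, in percent, with at least 1 match to each motif string in the central 600 bases, for promoter peaks (left) and non-promoter peaks (right); red bars are members and grey bars other autosomal peaks. E-box shares are 44.2% and 29.3% outside promoters, and MEF2 shares at promoters are 3.95% and 0.889%.

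A minority of the domains were copied or repetitive DNA. A member was counted as copied where at least 50% of its length matched another place in the genome at 95% identity or more, and as repetitive where at least 50% of it was repeat-masked. This held for 90 members, of which 42 were copied and 49 masked. In 9 domains, with 54 members, at least 50% of the members were of these kinds. They included the Gm3233 gene cluster of chromosome 10, where all 6 members were promoters of near-identical genes, the Speer4c and 4930572O03Rik region of chromosome 5, a histone gene cluster on chromosome 13 with Hist1h1c, a cluster near Zfp982, and a domain near Slc6a15 with a median masked share of 100%. Their median level was 7.92 CPM per kb, against 27.3 in the other 117 domains. Counts of such members are uncertain, because a read from one copy can be placed in another. Their level moved with single libraries: relative to the mean of LacZ-shRNA, the median member of these domains was at 0.31, -0.03 and -0.26 (log2) in LacZ-shRNA replicates 1, 2 and 3 and at -0.08, -0.08 and -0.004 in Yap-shRNA. All values of Yap-shRNA fell inside the LacZ-shRNA range.

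The domains with the most members were not led by one kind of gene. The largest, with 13 members, covered 69.1 kb of the Hist1 cluster on chromosome 13, and 11 of its members were promoters of histone genes, which are short and tightly packed. Of these 13 members 6 were copied or masked, so their counts are uncertain. The domain of Myot, which encodes a protein of the Z-disc, had 11 members of which 2 were promoters. Sec14l1, a lipid-transfer protein gene, and the region of Hmga1, Rps10 and Nudt3 had 10 each. The region near Speer4c, Sspn, which encodes sarcospan of the dystrophin complex, and the region of Fosb, Ercc1 and Ercc2, an AP-1 subunit and repair genes, had 9 each. Prrc2b was the first by position of those with 8. Sspn differed from the others in its makeup, since 7 of its 9 members were intergenic. Among the highest summed LacZ-shRNA levels were those of Adgre5 and Ddx39 (655 ± 229 CPM, SD, n = 3), Banp and Car5a (408 ± 7.70), Hmga1 (405 ± 36.1), Sec14l1 (378 ± 32.9) and Prx with Sertad1 (378 ± 36.8). Between groups, the sums of the Hist1 (-0.05 ± 0.11), Sspn (0.06 ± 0.11), Hmga1 (0.03 ± 0.12), Sec14l1 (-0.15 ± 0.12), and Prx (-0.09 ± 0.12) domains overlapped, on the log2 scale with SE. Banp and Car5a did not overlap, at 399, 410 and 414 CPM in LacZ-shRNA and 381, 354 and 380 in Yap-shRNA (-0.13 ± 0.12, adjusted p = 0.865). In the Fosb domain all 9 members were above 0 and the sum changed by 0.11 ± 0.12.

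Genes of muscle function started inside domains in part. Of the 20780 protein-coding autosomal genes, 310 (1.49%) had a start in a domain. Of lists chosen for the tissue, with earlier results of these data known, 3 of 32 contraction genes did (Myl1, Myot and Des), 2 of 18 excitation-contraction coupling genes (Jsrp1 and Scn4a), 3 of 20 energy metabolism genes (Mb, Fabp3 and Gys1), and 1 of 23 muscle transcription factors (Tead1). Of the Yap pathway and its targets 1 of 13 did, again Tead1, of genes the study named at enhancers 1 of 9 (Idh2), and of glucocorticoid and atrophy genes 1 of 13 (Trim63). None of 8 fibroblast, 8 endothelial, 8 leukocyte, 5 satellite cell and 3 autosomal Schwann cell genes did. As a check of the sorted nuclei, start-site windows of contraction genes had a median LacZ-shRNA level of 19.2 CPM per kb, against 3.74 in fibroblast, 5.72 in endothelial, 5.46 in leukocyte, 6.42 in satellite cell and 5.11 in Schwann cell genes. Fewer nuclei of a type and less open chromatin per nucleus cannot be told apart in these pools.

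None of these muscle domains passed the test of summed levels between groups. The domain of Des, which encodes the intermediate filament desmin, and Speg held 272, 295 and 289 CPM in LacZ-shRNA and 318, 293 and 305 in Yap-shRNA, a log2 fold change (Yap-shRNA over LacZ-shRNA) of 0.10 ± 0.12 (standard error, SE). The domain of Mb, the oxygen carrier myoglobin, held 242, 306 and 300 CPM against 303, 284 and 291 (0.05 ± 0.12). In both, the groups overlapped. The domain of Trim63, the ubiquitin ligase MuRF1 of muscle atrophy, held 269, 287 and 314 CPM against 308, 292 and 290 (0.03 ± 0.12). The coupling genes Jsrp1 (0.07 ± 0.12) and Scn4a, the muscle sodium channel (-0.10 ± 0.12), the fatty acid binding protein gene Fabp3 (0.02 ± 0.12) and the glycogen synthase gene Gys1 (-0.01 ± 0.12) did not pass either. The domain of Myot was lower in all 3 Yap-shRNA libraries, at 222, 225 and 219 CPM against 238, 264 and 283, with 10 of 11 members lower. Its change of -0.24 ± 0.12 had an adjusted p of 0.586 by edgeR's quasi-likelihood test and did not pass the threshold of 0.05.

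Whether knockdown of Yap changed the members was tested with edgeR's quasi-likelihood test over all 36097 peaks. At an adjusted p under 0.05, 1 member rose and 4 fell, 0.623% of members, where 0.0471% of all peaks rose and 0.571% fell. The share of members called was thus near that of all peaks. At an unadjusted p under 0.05 there were 40 higher and 54 lower members, 11.7% against 8.9% of all peaks. The groups did not overlap in 121 members (15.1%), 54 higher and 67 lower, against 13.3% of all peaks. The median SE was 0.14 in members and 0.19 in other peaks. The median log2 fold change of members was 0.01, with 418 higher and 385 lower, and 5% of members lay below -0.35 and 5% above 0.34. When libraries were scaled by their totals alone, the median change of all peaks was 0.14 and that of members 0.15, and the split of calls became 4 higher and 0 lower.

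The called member that rose lay between genes, about 11 kb from the nearest start of Myl1, which encodes the essential light chains of fast muscle myosin. This peak (chr1:66922861-66923667, GRCm38) held 10.4, 10.2 and 10.8 CPM in LacZ-shRNA and 22.3, 22.0 and 17.04 in Yap-shRNA. Every Yap-shRNA library lay above every LacZ-shRNA library. Its log2 fold change was 0.96 ± 0.18 (SE), with an adjusted p of 0.00261 by edgeR, and it remained past the threshold in all 14 other tests, scalings and left-out libraries, with adjusted p from 0.000118 to 0.0425. The peak holds 2 nuclear receptor strings and no E-box, MEF2 or TEAD string.

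The other 6 members of the Myl1 domain did not pass the threshold. The promoter peak that overlaps the downstream start of Myl1 (chr1:66935025-66935852) held 27.4, 28.9 and 25.6 CPM in LacZ-shRNA and 44.2, 29.5 and 20.8 in Yap-shRNA, and the groups overlapped. The peak over the upstream start (chr1:66944724-66945771) held 22.7, 28.0 and 23.6 against 32.5, 24.5 and 19.5 CPM. One member of 431 bp was wholly repeat-masked and held at most 4.13 CPM. Summed over the domain the change was 0.19 ± 0.12 with an adjusted p of 0.746.

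**Figure D3:**
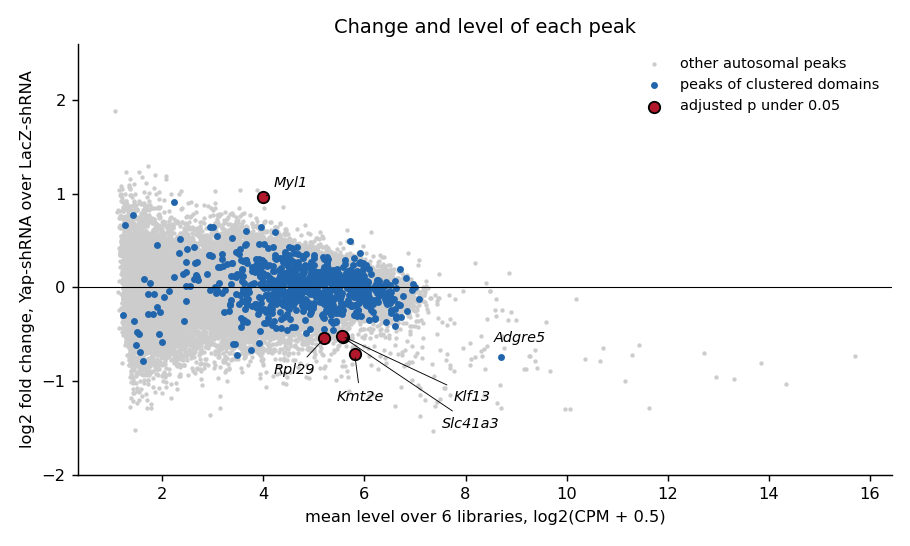
Log2 fold change (Yap-shRNA over LacZ-shRNA) of each peak against its mean level over the 6 libraries, log2(CPM + 0.5); grey points are other autosomal peaks, blue points members, and large red points the 5 members with an adjusted p under 0.05, named by the nearest protein-coding gene. Members gather near 0, with 5% below -0.35 and 5% above 0.34, and the member near Adgre5 is the strongest.

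The 4 members that fell were near Kmt2e, Rpl29, Klf13 and Slc41a3. The member near Rpl29, a ribosomal protein gene (chr9:106404950-106405875), held 38.1, 48.8 and 43.3 CPM in LacZ-shRNA and 30.1, 30.3 and 28.3 in Yap-shRNA. The groups did not overlap, and the change was -0.54 ± 0.13 with an adjusted p of 0.0357 by edgeR. All 7 members of that domain were lower, from -0.54 to -0.06, and their sum did not overlap between groups (-0.22 ± 0.12, adjusted p = 0.651).

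Klf13 encodes a zinc-finger transcription factor of the Krüppel-like family. The called member over a Klf13 start (chr7:63924058-63926156) held 50.9, 59.9 and 53.6 CPM in LacZ-shRNA and 31.5, 40.3 and 42.5 in Yap-shRNA, a change of -0.52 ± 0.13 with an adjusted p of 0.0456 by edgeR. It holds 1 TEAD and 1 AP-1 string. All 5 members of the Klf13 domain were lower, from -0.72 to -0.16. Summed, the domain held 249, 306 and 297 CPM against 215, 239 and 246, which did not overlap, with a change of -0.28 ± 0.12 and an adjusted p of 0.460. The start-site window of Klf13 was lower as well, at -0.37 ± 0.14 (adjusted p = 0.946). The window and the peaks share reads.

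The member in Slc41a3, a magnesium transporter gene (chr6:90624366-90625860), held 46.5, 69.2 and 52.9 CPM in LacZ-shRNA and 32.7, 40.6 and 41.5 in Yap-shRNA, a change of -0.53 ± 0.14 with an adjusted p of 0.0499. It also holds 1 TEAD and 1 AP-1 string. The called member nearest Kmt2e lay about 31.8 kb from its start, inside a non-coding gene (chr5:23402048-23402596). Kmt2e encodes a chromatin-binding protein of the lysine methyltransferase family. This peak held 66.8, 97.7 and 45.1 CPM against 35.6, 33.4 and 54.6. Here the groups overlapped, since Yap-shRNA replicate 3 lay above LacZ-shRNA replicate 3. Its change was -0.71 ± 0.17 with an adjusted p of 0.0325 by edgeR, and the other 4 members of the domain were between -0.18 and 0.17.

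These 4 calls were near the threshold. In 14 other tests, scalings and left-out libraries, the calls near Rpl29 and Kmt2e were each lost in 7 and those near Klf13 and Slc41a3 each in 8. DESeq2 called only the member near Myl1. Next in the higher direction by smallest p was a genic member in Klf16 near Rexo1, at 45.2, 34.4 and 48.3 CPM against 55.4, 63.1 and 66.8. The groups did not overlap, and the change of 0.50 ± 0.13 had an adjusted p of 0.0561 by edgeR, which did not pass.

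For the comparison between groups, strings were counted anywhere in a member, and not in its central bases alone as above. These sets are therefore larger, and a wider member has more room for a match. Of 129 members with a TEAD string, 63 were higher and 66 lower, with a median change of -0.003. Of these 129, 2 fell and none rose past the threshold (edgeR), where 0.571% of all peaks fell. At an unadjusted p under 0.05, 4 were higher and 13 lower, 13.2% of them against 11.7% of all members and 8.9% of all peaks. The median SE was 0.13 in members with a TEAD string and 0.14 in all members, and shares at equal width were not compared. Of 227 members with an AP-1 string, 3 fell (1.32%), and at an unadjusted p under 0.05 13 were higher and 18 lower, 13.7% of them. Of 38 with a MEF2 string none was called, and 1 higher and 1 lower had an unadjusted p under 0.05. Of 485 with an E-box, 4 fell (0.825%), and 22 higher and 35 lower had an unadjusted p under 0.05 (11.8%). The counts of falls draw on the same 4 fallen members, and those near Klf13 and Slc41a3 each hold both a TEAD and an AP-1 string. Whether a fall goes with a string was not tested. By class, 1 of 308 promoter, 2 of 300 genic and 2 of 195 intergenic members were called. That is 0.325% of promoter and 0.808% of non-promoter members, near the 0.316% and 0.722% of the other autosomal peaks of these classes. At an unadjusted p under 0.05 there were 26 higher and 46 lower non-promoter members, 14.5% against 9.21% of other non-promoter peaks. Among promoter members 14 were higher and 8 lower at that level, 7.14% against 7.52%. The larger share at that level was thus not particular to members with a TEAD string.

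Summed counts of each domain were tested next, in a fit over 25988 joined groups. No domain passed, where 0.646% of joined groups did, and the smallest adjusted p was 0.202 by edgeR's quasi-likelihood test. DESeq2, limma voom and the likelihood-ratio test also called 0, with 6, 14 and 7 domains at an unadjusted p under 0.05. By the quasi-likelihood test 6 domains were at that level, all lower, 4.76% of the domains against 8.32% of joined groups. The groups did not overlap in 19 domains, 7 higher and 12 lower, 15.1% against 12.8% of joined groups. Changes ran from -0.50 to 0.22 with a median of -0.003, and 62 domains were higher and 64 lower. That median was 0.14 with library size alone and 0.07 with a level-dependent offset. The SE of a domain was 0.11 to 0.19. The largest change, -0.50 with an SE of 0.16 in the Adgre5 domain, did not pass either. A change larger than its SE could thus stay uncalled.

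**Figure D4:**
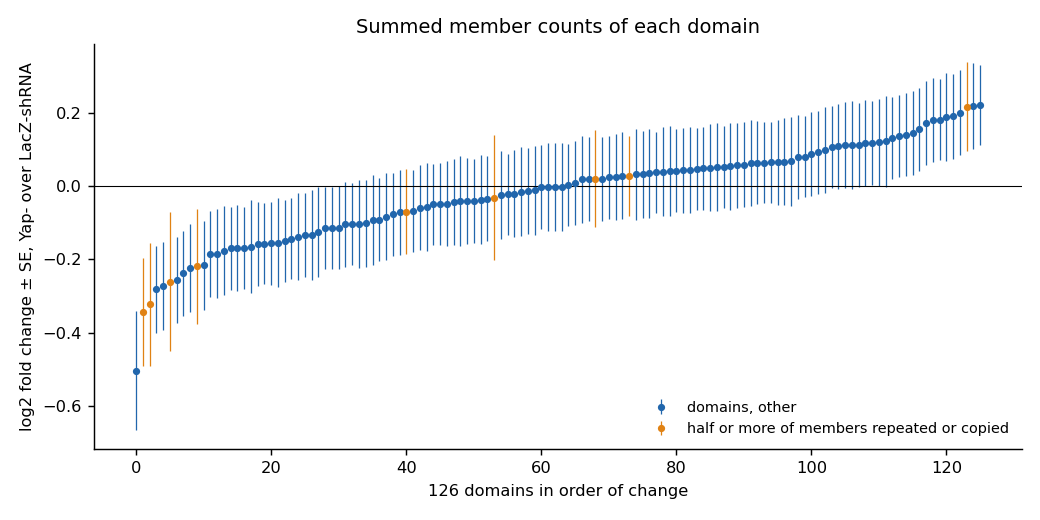
Log2 fold change (Yap-shRNA over LacZ-shRNA) of the summed member counts of each of 126 domains, in order. Bars are 1 standard error, derived from the change and the F statistic of edgeR. Orange points are the 9 domains with at least 50% of their members copied or repeat-masked. Values run from -0.50 to 0.22, and no domain passed the adjusted threshold.

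The lowest domain, that of Adgre5, an adhesion receptor gene, and Ddx39, an RNA helicase gene, was set by 1 peak. Its intergenic member took 79.4% of the summed LacZ-shRNA level and held 452, 772 and 336 CPM in LacZ-shRNA and 279, 218 and 433 in Yap-shRNA. The groups overlapped, and the change was -0.74 ± 0.22 (adjusted p = 0.120). At 556 CPM per kb it was the strongest member, the next being the called peak near Kmt2e at 101. It holds 13 tandem telomere-type units and 47.3% of it is repeat-masked. It is the only member with 4 or more such units. Of 207 other peaks of the table that hold them, 166 were lower, with a median change of -0.24. Past the threshold 12 of these 207 fell and none rose. Of all 36097 peaks, 18214 were lower, 0.571% fell past the threshold and 0.0471% rose, with a median change of -0.003. Whether the repeat goes with the change was not tested. The other 5 members of the domain, summed, held 128, 140 and 138 CPM in LacZ-shRNA and 153, 155 and 142 in Yap-shRNA. All 5 of them were above 0, so the sign of the domain rested on the repeat-bearing peak.

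The Kmt2e and Adgre5 peaks followed a like order over libraries, highest in LacZ-shRNA replicate 2, then replicate 1, and lowest in Yap-shRNA replicate 2. In both, Yap-shRNA replicate 3 lay above LacZ-shRNA replicate 3. The Kmt2e peak is not among those with 4 or more telomere-type units.

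Next to these, the lowest domains by p were that of Klf13, above, and the copied cluster near Zfp982 (-0.34 ± 0.15, adjusted p = 0.477). The latter held 442, 250 and 227 CPM in LacZ-shRNA and 259, 241 and 223 in Yap-shRNA, and without LacZ-shRNA replicate 1 its change was 0.02. The highest were a domain inside Ppp1r14c, a phosphatase inhibitor gene, at 96.1, 96.8 and 105 against 124, 110 and 114 CPM (0.22 ± 0.11, adjusted p = 0.601), and that of Pkm, the pyruvate kinase of glycolysis, at 220, 214 and 226 against 287, 249 and 232 CPM (0.22 ± 0.12, adjusted p = 0.652). The groups did not overlap in these, and all 5 members of the Pkm domain were above 0. The Gm3233 cluster of copied genes came next (0.22 ± 0.12, adjusted p = 0.672).

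The domains of Idh2 and Tead1 hold genes tied to Yap. Idh2 encodes the mitochondrial isocitrate dehydrogenase, and the study named it at an enhancer from these samples, so its direction is not independent evidence. Its domain of 6 members spanned 21.6 kb, the shortest of all, with 1 promoter and 5 intergenic members. The member about 5.6 kb upstream (chr7:80121026-80121603), whose TEAD string is shown above and which was chosen for its change, held 16.98, 17.8 and 17.8 CPM in LacZ-shRNA and 14.8, 9.59 and 10.4 in Yap-shRNA. Every Yap-shRNA library was lower, and the change was -0.59 ± 0.19 with an unadjusted p of 0.00339 and an adjusted p of 0.198, which did not pass. The promoter member (chr7:80113826-80115807) held 55.04, 61.1 and 63.6 CPM against 52.8, 61.0 and 58.6, and the groups overlapped. The promoter member holds a TEAD string too, as does a member about 18.8 kb upstream (chr7:80134237-80135457), which held 32.6, 31.8 and 38.9 CPM against 32.0, 31.5 and 35.2 (-0.09 ± 0.13, adjusted p = 0.926). The groups overlapped in it. Over the whole domain the change was -0.11 ± 0.11, with 5 of 6 members lower.

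Tead1 encodes one of the TEAD factors that bring Yap to DNA. Its domain held 7 members inside the gene, 1 of them a promoter. The promoter member held 32.9, 24.6 and 34.6 CPM in LacZ-shRNA and 35.7, 31.4 and 25.1 in Yap-shRNA. The strongest member, in an intron (chr7:112762776-112764523), held 84.9, 68.4 and 73.2 CPM against 68.9, 65.7 and 57.7, with a change of -0.24 ± 0.12 (adjusted p = 0.604). The groups overlapped in both, 5 of the 7 members were above 0, and the summed change was -0.01 ± 0.12.

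Members of one domain varied in direction. In 104 of 126 domains some members were higher and some lower, in 13 all were lower and in 9 all were higher. The median distance between the highest and lowest log2 fold change of a domain was 0.46. Across 677 pairs of neighbouring members the changes correlated with r = 0.24 and had the same sign in 60.9%, and across 7726 pairs of neighbours in groups of 2 to 5 peaks r was 0.20 and the same sign was found in 58.1%. These pairs share libraries and are not independent.

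Start-site windows, counted separately 1 kb to each side of annotated starts, gave no call inside domains. Of 392 windows of genes that start in a domain 0 passed, where 0.0223% of all 49366 did, and 2 higher and 11 lower had an unadjusted p under 0.05, 3.32% against 4.90% of all windows. The median log2 fold change was 0.02 in these and -0.01 in all windows. Windows of neighbouring genes can overlap. Whether a low count such as that of Fabp3 (1.66 ± 0.80 CPM in LacZ-shRNA) misses reads shared with another window was not tested.

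Values on both sides of the rule's limits are given as a description. Groups just outside, of 5 peaks, had a median level of 25.1 CPM per kb and a median change of 0.009 over 780 peaks, with 6 called (0.769%). Groups just inside, of 6 peaks, had 25.3 CPM per kb and 0.02 over 366 peaks, with 3 called (0.820%). The share of all peaks called was 0.618%. The 61 domain peaks above the width limit had a median change of 0.02 with 1 called (1.64%), and the 3 below it had 0.04 with none. Median level rose from 18.1 CPM per kb in peaks alone in their group to 25.1 in groups of 5, as did median width from 838 to 1142 bp.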

How the data were processed

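ATAC-seq had been run on PCM1+ nuclei of 3 LacZ-shRNA and 3 Yap-shRNA pools. The authors mapped reads to GRCm38 (BWA 0.7.17), dropped duplicate reads (SAMtools 1.8), took MACS 1.4.2-1 peaks found in 2 or more samples and counted reads with featureCounts 1.5.0, per the submitters' processing notes and the methods. The deposited values are raw counts per peak and per start-site window, from which features averaging fewer than 10 counts were absent. The methods give a minimum mapping quality for counts over whole genes, and whether it held for peaks and windows is not given in the sources used here.

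Coordinates are those of the deposited peak table. Counts were compared with edgeR 4.0.16 in R 4.3.3 (quasi-likelihood test, TMM factors, no covariate, Benjamini-Hochberg adjustment over each whole table, threshold 0.05). The SE printed with a log2 fold change was derived from this fit, as the absolute change over the square root of the F statistic. DESeq2 1.42.0 and limma 3.58.1 voom were alternatives. The steps were tested on simulated data. Classes came from GENCODE M21, and matches elsewhere from blastn 2.17.0 with masked bases left out of seeding. Domains were named by the genes that start inside. Named were the 8 domains with most members, the 6 with the highest level, members and domains by smallest p (up to 3 a direction if few passed), and list genes. Members, lists and tests were chosen with earlier results of these data known. Same-numbered libraries did not deviate together (r of 0.0155, -0.0931 and -0.139), and for other numberings r ran from -0.0354 to 0.137. This covers pairing by replicate number only, and which pools shared animals is not given in the labels. Some named items are not reported here.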

Additional observations from a re-analysis of the deposited data

How the results depend on the processing

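The count of 5 called members was 1 with DESeq2, 2 with a level-dependent offset, 2 without peaks holding runs of 15 or more G or C, and 1 at an adjusted p under 0.01, and it ran from 1 to 10 as single libraries were left out. It was 1 without LacZ-shRNA replicate 2, Yap-shRNA replicate 1 or Yap-shRNA replicate 2, and 10 without LacZ-shRNA replicate 3. The share of all peaks called moved as well. It was 0.618% in the main fit, 0.327% with DESeq2, 0.396% with the level-dependent offset and 0.294% without the G or C runs. Without LacZ-shRNA replicate 2 it was 0.366%, without Yap-shRNA replicate 1 or replicate 2 it was 0.260%, and without LacZ-shRNA replicate 3 it was 1.24%. With other limits of the rule the count of called members was 0 of 8 for gaps of at most 5000 bp. For gaps of at most 20000 bp it was 21 of 3123 (0.672%). It was 19 of 3101 (0.613%) for groups of 4 or more peaks and 0 of 69 for groups of 10 or more. The cause was not tested, apart from the numbers of members. The count of called domains ran from 0 to 1 over left-out libraries, the Adgre5 domain being called without LacZ-shRNA replicate 3 or without Yap-shRNA replicate 3. The count of called windows in domains ran from 0 to 6, with 6 of 392 without LacZ-shRNA replicate 1. The share of all windows called without that library is not given here, so these 6 are not read as a result about domains. Without the most abundant 1% of joined groups, 43 domains were left and none was called.

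The median change of members moved from 0.01 to 0.15 with library size alone and ran from -0.03 to 0.05 over left-out libraries. The level of members over other peaks, 0.36 on the log2 scale, was 0.49 for gaps of at most 5000 bp, 0.18 for groups of 10 or more and 0.74 without promoter peaks. The replicate block gave 4 called members, 0 domains and 0 windows, and the call near Klf13 was lost under it (adjusted p = 0.0516, edgeR). Of 176 values of named peaks and domains, 175 kept their direction, and the domain near Zfp982 ran from -0.53 to 0.020 over left-out libraries, with 0.020 and so the other sign without LacZ-shRNA replicate 1, against -0.34 with all. Leaving out the 9 copied or repeat-rich domains, an alternative chosen after seeing the data, gave 5 called members, a median change of 0.02 and a level difference of 0.39. Domains at an unadjusted p under 0.05, 6 with all libraries, were 23 with the level-dependent offset, 16 with library size alone and 1 with the replicate block. Over left-out libraries they were 2 to 19, with 19 without LacZ-shRNA replicate 1 and 11 without LacZ-shRNA replicate 3. They were 2 without LacZ-shRNA replicate 2, Yap-shRNA replicate 1 or Yap-shRNA replicate 2. The share of all joined groups at that level was 8.32% in the main fit and is not given for the other settings. These counts are therefore not read as a result about domains. Joined groups past the adjusted threshold were 168 in the main fit, 120 with the offset, 169 with library size alone and 172 with the block. Over left-out libraries they ran from 98 to 271. How depth limits members of different levels was not tested.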
